A study of Mus musculus with 2 samples.

Results

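Imprinted genes outside the *Dlk1* domain were described in sorted cells of mouse embryonic forelimbs. A fixed list of 44 symbols was looked up in the deposited transcript tables; 43 had a row among the 22096 symbols, *Snurf* had none, and 37 were measured, which here means a level of at least 1 FPKM (fragments scaled to the length of the transcript and to all mapped fragments) in at least one library. Over all genes 12096 were measured in this sense. The list was chosen by gene names, with the FPKM ratios of these same libraries in view, so every value below is a description and none is a test.

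RNA sequencing compared ScxGFP positive with ScxGFP negative cells of forelimbs at embryonic day E13.5, from mice of mixed strain background. Both populations came from embryos carrying the ScxGFP reporter, a green fluorescent protein under regulatory sequence of *Scx*, the gene of the tendon progenitor factor scleraxis, so they differ in reporter fluorescence and not in genotype. Each population gave 1 library from 6 pooled forelimbs (3 pairs), which leaves no replicates, no error and no p-value. *Scx*, the gene behind the sort, was listed at 134 FPKM among positive and 1.69 among negative cells.

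An imprinted gene is transcribed mainly from the copy inherited from one parent, because a mark laid down in the egg or sperm, usually DNA methylation at a control region, keeps the other copy silent. Such genes lie in clusters in which maternally and paternally expressed members share a control region, and many of them regulate fetal growth: paternally expressed genes such as *Igf2* tend to promote it and maternally expressed genes such as *Cdkn1c*, *Grb10* and *Igf2r* tend to restrain it. Many are abundant in embryonic mesenchyme and decline after birth. The parental copy named below is background knowledge of the mouse. The tables hold no allele counts, so neither imprinting nor its loss can be read from them.

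The start-site windows of some of the genes are printed first, because imprinted control regions often coincide with promoters and are kept methylated through the zinc finger protein ZFP57, whose core motif is the hexamer TGCCGC. RefSeq windows of build GRCm38.p6, each 300 bases long and running from 250 bases before to 50 after an annotated start, were matched by symbol and were at hand for 35 of the 44 genes. Those for *H19*, *Cdkn1c*, *Peg10*, *Sgce*, *Nespas*, *Impact*, *Kcnk9*, *Peg13* and *Trappc9* were not used here. The sequences follow, 5′ to 3′ along the gene's strand: 1 window with the hexamer for each of *Plagl1*, *Zim1*, *Zdbf2* and *Mest*, the genes at least 2-fold higher in the positive library whose windows hold it, and 1 for *Igf2*. Capitals mark the hexamer on either strand (TGCCGC or GCGGCA). They lie at chr10:13090582-13090881 (plus strand), chr7:6696383-6696682 (minus), chr1:63200108-63200407 (plus), chr6:30737800-30738099 (plus) and chr7:142661222-142661521 (minus).
Plagl1: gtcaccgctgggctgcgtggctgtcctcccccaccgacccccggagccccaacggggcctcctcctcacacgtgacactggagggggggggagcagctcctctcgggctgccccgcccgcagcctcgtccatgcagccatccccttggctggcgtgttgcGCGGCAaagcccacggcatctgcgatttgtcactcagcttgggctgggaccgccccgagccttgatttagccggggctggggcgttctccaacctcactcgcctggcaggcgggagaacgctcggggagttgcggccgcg
Zim1: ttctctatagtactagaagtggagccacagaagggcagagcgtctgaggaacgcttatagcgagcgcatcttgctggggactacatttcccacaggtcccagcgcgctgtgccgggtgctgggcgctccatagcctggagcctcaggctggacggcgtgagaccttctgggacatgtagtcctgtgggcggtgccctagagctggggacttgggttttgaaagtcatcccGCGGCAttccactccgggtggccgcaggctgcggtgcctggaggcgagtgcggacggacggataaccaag
Zdbf2: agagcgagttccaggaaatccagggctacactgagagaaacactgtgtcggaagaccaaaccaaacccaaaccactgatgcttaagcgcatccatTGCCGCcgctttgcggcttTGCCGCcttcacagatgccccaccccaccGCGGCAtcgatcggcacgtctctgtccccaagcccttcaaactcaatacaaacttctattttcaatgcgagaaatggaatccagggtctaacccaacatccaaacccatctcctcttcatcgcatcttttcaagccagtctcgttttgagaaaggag
Mest: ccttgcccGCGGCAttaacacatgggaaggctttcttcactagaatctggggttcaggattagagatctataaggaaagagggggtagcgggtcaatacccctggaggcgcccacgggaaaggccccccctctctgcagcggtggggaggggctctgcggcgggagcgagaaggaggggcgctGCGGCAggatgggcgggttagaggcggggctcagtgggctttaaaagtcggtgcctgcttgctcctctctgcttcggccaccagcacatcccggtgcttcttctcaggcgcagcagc
Igf2: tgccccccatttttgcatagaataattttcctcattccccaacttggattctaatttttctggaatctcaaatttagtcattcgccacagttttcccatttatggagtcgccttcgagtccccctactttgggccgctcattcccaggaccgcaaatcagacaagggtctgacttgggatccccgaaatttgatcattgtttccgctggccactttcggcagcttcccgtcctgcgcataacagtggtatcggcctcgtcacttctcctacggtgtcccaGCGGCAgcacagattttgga

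The windows held 1 hexamer each for *Plagl1*, *Zim1* and *Igf2*, 2 for *Mest* and 3 for *Zdbf2*. *Zdbf2* has another window, at chr1:63273019-63273318, with 0 hexamers and 38 CpG, and *Mest* and *Igf2* also have windows without the hexamer. Because windows were matched by symbol, a printed window need not be the start of the transcript that was measured. Of the 53 windows of imprinted genes 14 held at least 1 match (26.4%), against 3813 of all 32851 windows (11.6%). The *Snrpn* and *Snurf* entries share 1 window, and 2 of the *Mest* windows differ by only a few bases, so the windows are not independent. The imprinted windows were also richer in CpG, with a median of 15 CpG against 7 over all windows and a GC share of 57.7% against 52.7%. The shorter string GCGGC, which every hexamer match contains, was present in 58.5% of imprinted and 39.2% of all windows. By gene, the hexamer was present for 4 of the 9 genes with windows that were at least 2-fold higher in positive cells and for 8 of the 25 others that had a row, against 13.1% of all genes with windows. A gene was counted if any of its windows held the hexamer. A match describes the letters of the window and not a bound site.

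In the expression tables, imprinted genes as a group stood higher in ScxGFP-positive cells than most genes did. Differences are given as log2((FPKM positive + 1) / (FPKM negative + 1)), called a ratio below, and 2-fold on this scale is the size used to count genes. Of the 37 measured imprinted genes 11 were at least 2-fold higher in the positive library and 0 were at least 2-fold lower, while 4.03% of all 12096 measured genes were higher by as much and 9.98% were lower. With 1 library per group no test stands behind either count. The median ratio was 0.50, against −0.27 over all measured genes, and 29 of the 37 lay above 0, against 26.2% of all genes. The whole transcript scale was shifted toward the negative library, so a ratio of −0.27 marks the middle of all genes, and 34 of the 37 lay above it. *Magel2* reached the minimum through the positive library alone; without any minimum the median was 0.26 over all 43 imprinted genes with a row and −0.14 over all 17906 genes above 0 in either library. With the median ratio of all genes set to 1 instead, 15 imprinted genes were 2-fold higher and 0 lower, against 5.68% and 7.29% of all genes. The listed genes contributed 1.51% of the FPKM sum of positive cells and 0.805% of that of negative cells. The genes nearest the 2-fold mark were *Mest* (1.02) on its upper side and *Igf2* (0.86) below it.

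**Figure D1:**
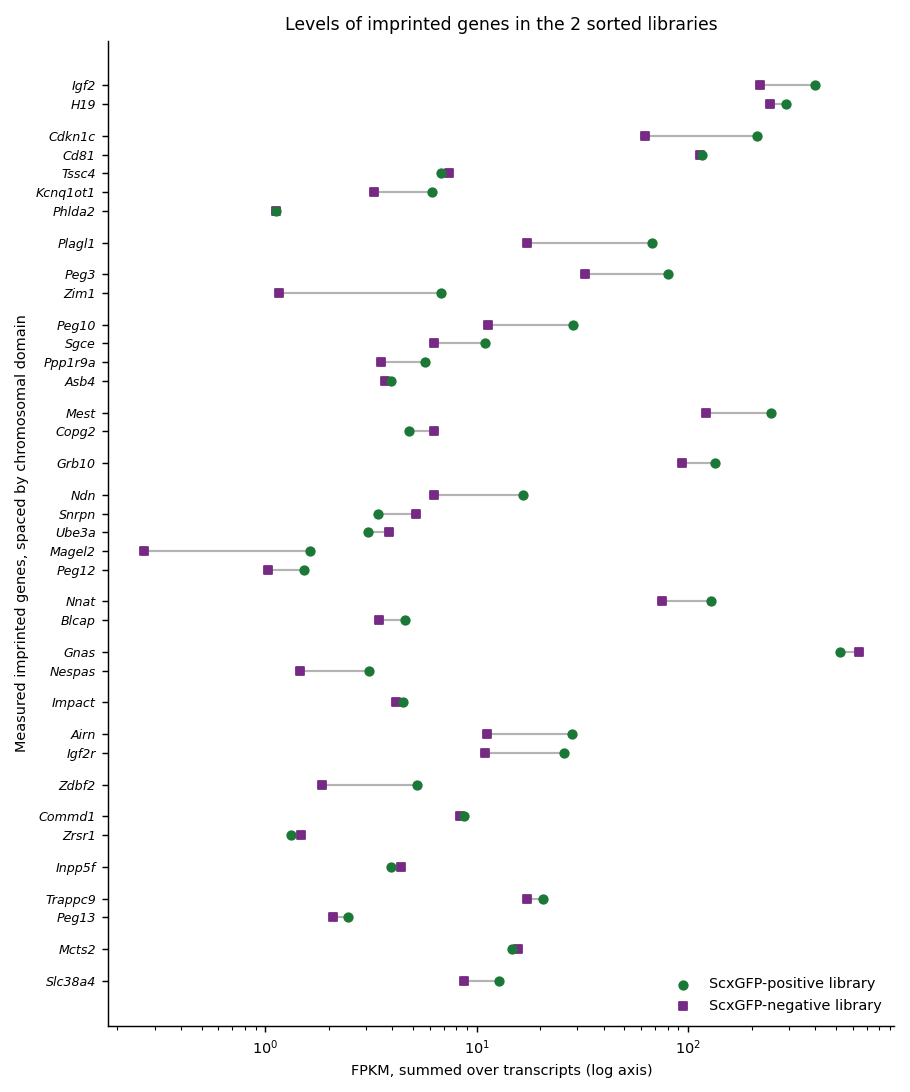
Level of each of the 37 measured imprinted genes in the ScxGFP-positive (green circle) and ScxGFP-negative (purple square) library, in FPKM summed over transcripts on a log axis, with gaps between chromosomal domains; each symbol is 1 library and has no error bar. *Gnas*, *Igf2*, *H19* and *Mest* lie highest, and the widest gaps between libraries belong to *Magel2*, *Zim1*, *Plagl1* and *Cdkn1c*.

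The *Igf2* and *H19* domain on distal chromosome 7 held some of the most abundant messages of these cells. *Igf2*, the paternally expressed gene of insulin-like growth factor II, the main fetal growth ligand of this family, stood at 398 FPKM in positive and 219.5 in negative cells (mm9 chr7:149836673-149846940). This placed it at rank 33 of the measured genes of positive cells and rank 124 of those of negative cells, with a ratio of 0.86. *H19*, the maternally expressed long noncoding RNA that shares enhancers with *Igf2*, stood at 291 FPKM in positive and 245 in negative cells (chr7:149761437-149764051), a ratio of 0.25. Positive cells therefore had more *Igf2* than *H19* per kilobase, at 1.37 times its FPKM, and negative cells less, at 0.898 times. The least covered of these 4 values, that of *H19* in negative cells, rests on 1527471 aligned bases.

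*Igf2* was listed as 3 transcripts with different first exons. NM_001122737 stood at 177 FPKM in positive and 85.4 in negative cells, a ratio of 1.04. NM_010514 stood at 77.1 against 32.05, a ratio of 1.24, and NM_001122736, which starts farthest upstream, at 144.5 against 102, a ratio of 0.50. The upstream form thus made up 36.3% of *Igf2* in positive and 46.5% in negative cells. These forms share most of their length, so the split among them is the estimate of the abundance program and not a direct count. *Grb10*, a maternally expressed adaptor that binds insulin and IGF receptors and damps their signal, had 2 listed forms. Summed, it stood at 133.5 FPKM in positive and 93.7 in negative cells, a ratio of 0.51, and both forms were higher in positive cells, with ratios of 0.30 (NM_001177629) and 0.67 (NM_010345).

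**Figure D2:**
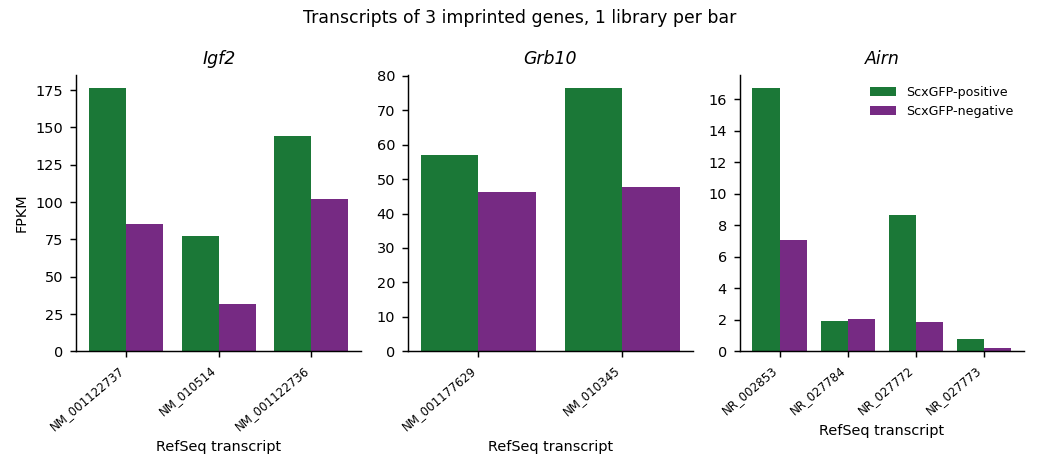
FPKM of each listed RefSeq transcript of *Igf2*, *Grb10* and *Airn* in the ScxGFP-positive (green) and ScxGFP-negative (purple) library; each bar is 1 library, bars start at 0 and the 3 panels have separate axes. Every *Igf2* and *Grb10* form was higher in the positive library, and of the *Airn* forms NR_027784 was not (1.95 against 2.05 FPKM).

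In the neighbouring *Kcnq1ot1* domain one gene stood apart. *Cdkn1c*, the maternally expressed gene of p57, an inhibitor of cyclin-dependent kinases that accompanies cell cycle exit, stood at 212 FPKM in positive and 62.6 in negative cells (chr7:150644244-150646955), a ratio of 1.74. *Kcnq1ot1*, the paternally expressed noncoding RNA whose transcription silences the domain on that copy, stood at 6.17 against 3.28, a ratio of 0.75. It is listed as 1 unspliced transcript of 83437 bases lying wholly inside *Kcnq1*, and the library chemistry does not mark strand, but *Kcnq1* itself was under 1 FPKM in both libraries (0.0180 and 0.118). The other measured genes whose maternal copy is active, widely or in some tissues only, did not share the difference of *Cdkn1c*. *Phlda2*, a growth-restraining gene best known from placenta, stood near the minimum at 1.13 FPKM in positive and 1.12 in negative cells. These values rest on about 1899 and 1972 aligned bases. *Cd81*, a tetraspanin gene imprinted in placenta, stood at 117 against 114, and *Tssc4*, likewise taken as imprinted in some tissues only, at 6.82 against 7.44. The transporter gene *Slc22a18* (0.147 against 0.439) and the trophoblast factor gene *Ascl2* (0.293 against 0.326) did not reach the minimum, and the positive value of *Slc22a18* rests on about 506 aligned bases.

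*Plagl1*, the paternally expressed gene of a zinc finger factor (ZAC1) that is known to regulate other imprinted genes, had the highest ratio of the list with the pseudocount of 1; with one of 0.1, *Zim1* (2.44) and *Magel2* (2.23) lay above it (1.97). *Plagl1* stood at 67.9 FPKM in positive and 17.3 in negative cells (chr10:12810594-12851501), a ratio of 1.92, and held rank 305 among the measured genes of positive cells and rank 1562 among those of negative cells. The *Peg3* domain on proximal chromosome 7 stood next to it. *Peg3*, a paternally expressed zinc finger factor of mesodermal tissues, stood at 80.8 against 32.5 FPKM, a ratio of 1.29 (chr7:6658671-6683130). The table also lists *Apeg3*, an antisense transcript at this locus, at 103.6 against 41.4 FPKM over a stretch of 865 shared bases, and without strand the reads of the pair cannot be told apart there. *Zim1*, the maternally expressed zinc finger gene beside it, stood at 6.79 against 1.17 FPKM, a ratio of 1.85. By background knowledge opposite parental copies are active in *Peg3* and *Zim1*, and both genes were more than 2-fold higher in positive cells. *Usp29*, a paternally expressed protease gene that starts beside *Peg3*, lay under the minimum at 0.395 against 0.163 FPKM.

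On proximal chromosome 6, *Peg10* and *Sgce* start back to back from the paternal copy. *Peg10*, a gene derived from a retrotransposon, stood at 28.5 FPKM in positive and 11.3 in negative cells (chr6:4697306-4710516), a ratio of 1.26. *Sgce*, which encodes epsilon-sarcoglycan of the dystrophin-associated complex, stood at 10.9 against 6.31, a ratio of 0.71. The genes farther out were closer to equal, with the neurabin gene *Ppp1r9a* at 5.73 against 3.53 and *Asb4*, a maternally expressed ubiquitin ligase adaptor, at 3.95 against 3.69. *Mest*, a paternally expressed gene of an enzyme-like membrane protein widespread in embryonic mesoderm, stood at 247 FPKM in positive and 121 in negative cells (chr6:30688063-30698457), a ratio of 1.02. *Copg2*, a coat protein gene whose end overlaps that of *Mest* by 47 bases and whose maternal copy is favoured, lay the other way at 4.77 against 6.26, a ratio of −0.33 that was 0.047 with FPKM rescaled to equal sums.

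The receptor that clears IGF2 and its antisense RNA stood higher together. *Igf2r*, the maternally expressed gene of the receptor that carries IGF2 to lysosomes, stood at 25.8 FPKM in positive and 10.9 in negative cells (chr17:12875272-12962572), a ratio of 1.17. *Airn*, the paternally expressed noncoding RNA that starts inside *Igf2r* and silences it on that copy, stood at 28.1 against 11.2, a ratio of 1.25. Their FPKM were nearly equal in each library, *Airn* at 1.09 times *Igf2r* in positive and 1.02 times in negative cells. The loci overlap over 28396 bases, and without strand marking the reads within the overlap cannot be assigned to one of them. The ligand and its clearing receptor were therefore both higher in positive cells, *Igf2r* by more than *Igf2* in these 2 libraries.

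The domain of *Snrpn* on central chromosome 7, which corresponds to the human Prader-Willi and Angelman region, was split. *Ndn*, the paternally expressed gene of necdin, a MAGE-family protein of neurons and mesenchymal precursors, stood at 16.7 FPKM in positive and 6.28 in negative cells (chr7:69493163-69494813), a ratio of 1.28. *Magel2*, the neighbouring MAGE gene, stood at 1.62 against 0.268, a ratio of 1.05, and its negative value rests on about 2978 aligned bases. *Peg12* stood at 1.52 against 1.03 and *Mkrn3* at 0.632 against 0.485, the latter under the minimum. At the other end of the domain ratios lay below 0 on the deposited scale. *Snrpn*, a spliceosome protein gene and the lowest ratio of the list, stood at 3.40 against 5.15 FPKM, a ratio of −0.48, although it is paternally expressed like *Ndn*. Its ratio was −0.21 with the median ratio of all genes set to 1, and −0.026 with equal sums without transcripts under 200 bases. *Ube3a*, a ubiquitin ligase gene imprinted in neurons only, stood at 3.07 against 3.84, a ratio of −0.25 that was 0.011 with the median ratio of all genes set to 1. *Ndn* was thus at 4.90 times the FPKM of *Snrpn* in positive cells and 1.22 times in negative cells.

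*Gnas*, which encodes the stimulatory G protein alpha subunit and gives several transcripts from promoters with different imprints, was the most abundant gene of the list. It stood at 523 FPKM in positive and 642 in negative cells (chr2:174109821-174172243), a ratio of −0.29 (0.041 with the median ratio of all genes set to 1), close to the median of all genes. The sum hides unlike transcripts. Those starting at 174109821, the position of the maternally expressed *Nesp* promoter, summed to 8.72 against 3.69 FPKM, a ratio of 1.05. Those starting at 174123360, the paternally expressed XL promoter, summed to 3.21 against 0.0921, a ratio of 1.95. The forms that start downstream carried nearly all of the FPKM. NR_003258, a noncoding RNA by its NR prefix, starts at 174153415 and stood at 475.5 against 579, a ratio of −0.28. By the program's estimate it made up 90.9% of *Gnas* in positive and 90.2% in negative cells. The share of coding message in the sum is therefore uncertain. The 2 forms starting at 174155590 stood at 35.5 against 59.1, a ratio of −0.72. All these forms share their 3′ exons apart from NM_019690 and NM_201617, so how the program divided reads among them is uncertain, and 2 of the values in the negative library are vanishingly small estimates. *Nespas*, the paternally expressed antisense RNA over the *Nesp* promoter, stood at 3.11 against 1.46 FPKM, a ratio of 0.74.

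Genes that lie inside an intron of another gene were compared with their hosts. *Nnat*, the paternally expressed gene of the small membrane protein neuronatin, stood at 129 FPKM in positive and 75.2 in negative cells, a ratio of 0.77, and both of its listed forms were higher (0.68 and 0.98). Its host *Blcap* stood at 4.57 against 3.44, a ratio of 0.33. The other nested genes were close to equal between libraries, and the ratios of *Zrsr1* and *Mcts2* changed sign with the scaling (−0.095 and −0.094 as deposited, 0.10 and 0.22 with the median ratio set to 1). *Zrsr1* stood at 1.32 against 1.48 FPKM and its host *Commd1* at 8.67 against 8.39. *Mcts2* stood at 14.7 against 15.7 with its host *H13* at 15.8 against 12.5. *Peg13* stood at 2.47 against 2.08 and *Trappc9*, summed over its forms, at 20.5 against 17.3. Of that sum, 85.2% in positive and 84.2% in negative cells was assigned to NM_001164643, a form that does not span *Peg13*. Among the forms that do span it, the most abundant, NM_029640, stood at 2.53 against 2.42 FPKM. *Nap1l5* lay under the minimum at 0.270 against 0.435 FPKM, as did *Kcnk9*, a potassium channel gene imprinted in brain, at 0.0551 in the positive library and listed at 0 in the negative one.

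The remaining genes stand in domains of their own. *Zdbf2*, a paternally expressed zinc finger gene that affects postnatal growth, stood at 5.23 FPKM in positive and 1.85 in negative cells (chr1:63319843-63361149), a ratio of 1.13. *Slc38a4*, a paternally expressed amino acid transporter gene, stood at 12.7 against 8.68, a ratio of 0.50. *Impact*, a paternally expressed regulator of translational control, stood at 4.49 against 4.17, and *Inpp5f*, an inositol phosphatase gene with an imprinted form in brain, at 3.95 against 4.38, so both were close to equal, and *Inpp5f* was above 0 (0.15) once the median ratio of all genes was set to 1.

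Sorted by parental copy, genes of both kinds were among the high ratios. The counts that follow stand beside 4.03% of all genes at least 2-fold higher and 9.98% lower. Of 20 measured genes with the paternal copy active, 8 passed 2-fold upward; their median ratio was 0.76, with a range from −0.48 (*Snrpn*) to 1.92 (*Plagl1*). Of 8 with the maternal copy active, 3 did (*Cdkn1c*, *Zim1* and *Igf2r*), with a median of 0.38 and a range from −0.33 (*Copg2*) to 1.85 (*Zim1*). The last class holds genes whose imprinting is known in some tissues only, mainly placenta or brain: of 8 measured, 0 were 2-fold higher or lower, a count near the share of all genes that is higher; their median was 0.035 (0.35 with the median ratio of all genes set to 1), and their highest ratio was 0.57 (*Ppp1r9a*, 1.03 with FPKM rescaled to equal sums without transcripts under 200 bases). The classes hold few genes, some share a domain, and no test of their difference was made. In each of the *Peg3*, *Igf2r* and *Igf2* domains the paternally and the maternally expressed gene both had ratios above 0, whereas in the *Mest* domain they lay on opposite sides of 0 on the deposited scale and on the same side with equal sums, where *Copg2* was at 0.047.

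**Figure D3:**
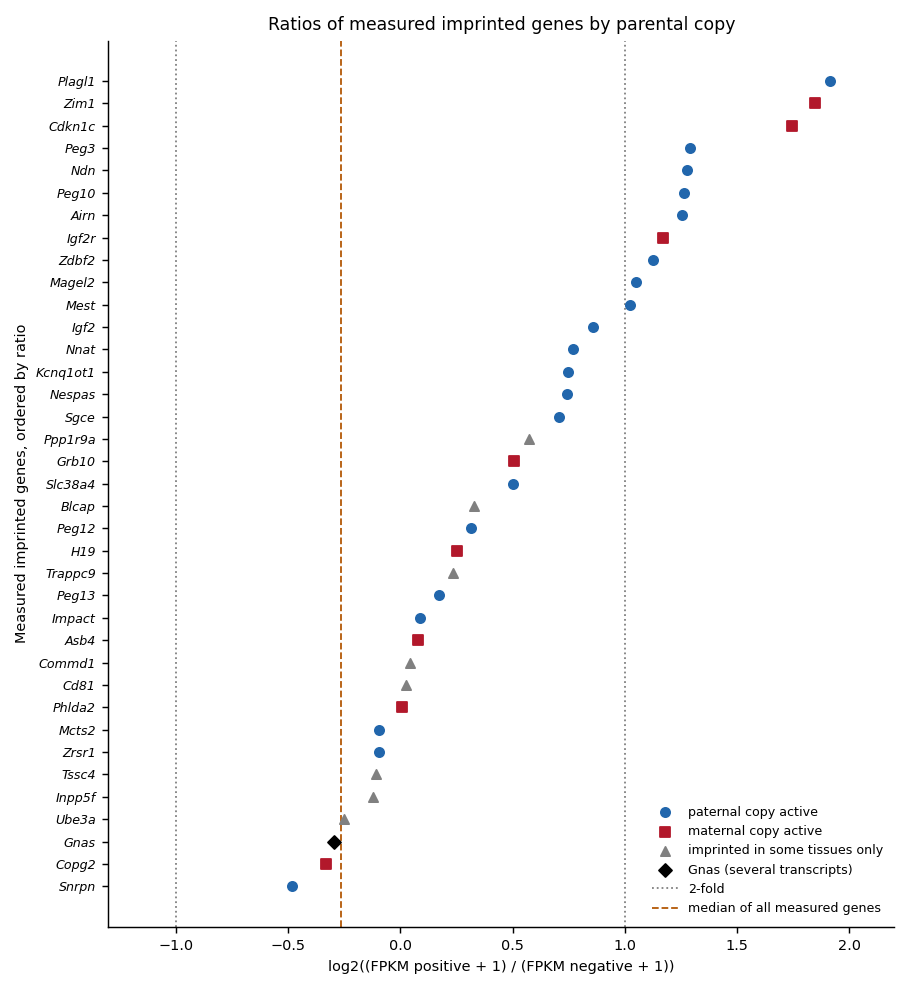
Ratio of each of the 37 measured imprinted genes, ordered from highest to lowest, as log2((FPKM positive + 1) / (FPKM negative + 1)); colour and shape give the class of parental copy, dotted lines 2-fold in either direction and the dashed line the median of all measured genes (−0.27). Genes with the paternal copy active (blue) and with the maternal copy active (red) both reach past 2-fold, and those imprinted in some tissues only (grey) all lie within it on this scale.

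The wider IGF pathway was taken from a list of 19 other genes. Of 17 measured, 3 were at least 2-fold higher and 0 lower, with a median ratio of 0.15; 4.03% and 9.98% of all genes were past 2-fold in these directions. With the median ratio of all genes set to 1 the counts were 6 and 0, against 5.68% and 7.29%. The ligand gene *Igf1* stood at 36.2 FPKM in positive and 5.84 in negative cells, a ratio of 2.44, and the genes of the proteases that free IGF from binding proteins, *Pappa2* (2.62 against 0.215) and *Pappa* (1.59 against 0.254), were the other two. *Pappa* and *Pappa2* reached the minimum through the positive library alone, so their place among the measured genes already required a difference. The binding protein gene *Igfbp4* stood at 109 against 54.5, a ratio of 0.98. *Igf1r*, the receptor through which both ligands signal, was close to equal at 15.5 against 13.9 FPKM. The genes of the RNA-binding proteins that attach to *Igf2* message were also close to equal, *Igf2bp1* at 6.63 against 8.03, *Igf2bp2* at 13.52 against 12.2 and *Igf2bp3* at 10.7 against 12.7. Ligand genes thus differed between the libraries more than the main receptor gene did.

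Genes that maintain imprints lay near the middle of all genes. Of 21 measured genes of DNA methylation, imprint protection and chromatin, 0 were past 2-fold in either direction, against 14% of all genes, and their median ratio of −0.28 (0.034 with the median ratio of all genes set to 1) was close to that of all genes. *Zfp57*, whose product guards methylated control regions, stood at 13.7 FPKM in positive and 10.2 in negative cells, a ratio of 0.40 and the highest of the 21. *Ctcf*, the insulator protein of the *Igf2* and *H19* domain, stood at 12.5 against 15.9. *Uhrf1* (11.7 against 22.4), *Dnmt1* (20.4 against 32.3), *Dnmt3b* (2.03 against 4.30) and *Suz12* (8.12 against 13.8) had the lowest ratios, from −0.88 to −0.64; the first and second encode the machinery that copies methylation during DNA replication.

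Neighbours of the imprinted genes were taken as a second list of 42 symbols. Some of them are imprinted themselves, so this is not a list of unimprinted genes. Of 24 measured, 3 were at least 2-fold higher and 6 lower, with a median ratio of −0.30, close to that of all genes. With the median ratio of all genes set to 1, 26 were measured. The counts were then 3 and 4, against 5.68% and 7.29% of all genes. The largest differences were those of *Slc22a3*, a transporter gene beside *Igf2r*, at 0.0668 FPKM in positive and 12.8 in negative cells, and of *Tspan32*, a tetraspanin gene of blood cells in the *Kcnq1ot1* region, at 0.0403 against 3.27. On the other side stood *Trpm5* (5.43 against 1.06) and *Klf14* (2.66 against 0.178). The median of the neighbours thus lay near that of all genes, while the shares past 2-fold were 12.5% higher and 25% lower, against 4.03% and 9.98% of all genes. Of the neighbours past 2-fold, *Klf14* and *Cpa4* reached the minimum through the positive library alone. *Slc22a3*, *Tspan32* and *Pon3* reached it through the negative one alone. For these genes a place among the measured genes already required a difference, so the shares are not a result about neighbours. In the *Dlk1* domain ratios reached higher: *Dlk1* stood at 20.3 against 0.884 FPKM, *Meg3* at 65.0 against 8.22, *Rian* at 78.0 against 10.9 and *Mirg* at 4.53 against 0.720. The median ratio over 7 measured genes was 1.68, that of *Mirg*. Ratios ran from −0.29 (*Wdr25*) to 3.50, while the highest among the genes described here was 1.92. *Dlk1*, *Rtl1*, *Mirg* and *Begain* reached the minimum through the positive library alone, and *Wdr25* through the negative one. Their place among the measured genes thus already required a difference.

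The cells in the 2 libraries also differed in lineage, and those values stand beside the ratios above. Over all measured genes, 9.98% were at least 2-fold lower in positive cells and 4.03% at least 2-fold higher. All 6 leukocyte and all 6 epidermal markers were at least 2-fold lower in positive cells, as were 5 of 6 erythroid, 5 of 6 endothelial and 5 of 6 glial markers. Their summed FPKM in positive against negative cells was 5.67 against 298 for leukocyte, 11.3 against 304 for epidermal, 156 against 6414 for erythroid, 2.95 against 45.5 for endothelial and 4.02 against 35.5 for glial markers, with none listed at 0. Markers of tendon (7 of 8) and skeletal muscle (6 of 8) were at least 2-fold higher, with summed FPKM of 754 against 114 and 155.5 against 20.4. Many lineage markers reached the minimum through 1 library alone, such as *Lyz2* (0.979 against 77.45 FPKM) and *Tnmd* (10.2 against 0.0361). Their place among the measured genes already required a difference. Cartilage markers were mixed, with 1 of 5 measured at least 2-fold higher (*Lect1*, 6.41 against 0.435 FPKM), *Col2a1* at 68.1 against 40.4 and *Col9a1* at 4.90 against 6.88. A list of 5 limb mesenchyme genes was chosen after their values were seen. Among them *Twist1* had a ratio near 0, and *Prrx1* stood at 37.8 against 27.8. *Tbx5* stood at 27.4 against 15.9, *Pdgfra* at 44.5 against 10.6 and *Prrx2* at 12.05 against 22. Of these 5 genes, 4 had ratios above 0, and 1 was at least 2-fold higher. Their median ratio was 0.43, near the 0.50 of the imprinted list, and that of the measured cartilage markers was 0.74. The part that these lineages have in the levels of imprinted genes was not tested. In a pool of cells, fewer cells that express a gene and less RNA of it per cell cannot be told apart.

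**Figure D4:**
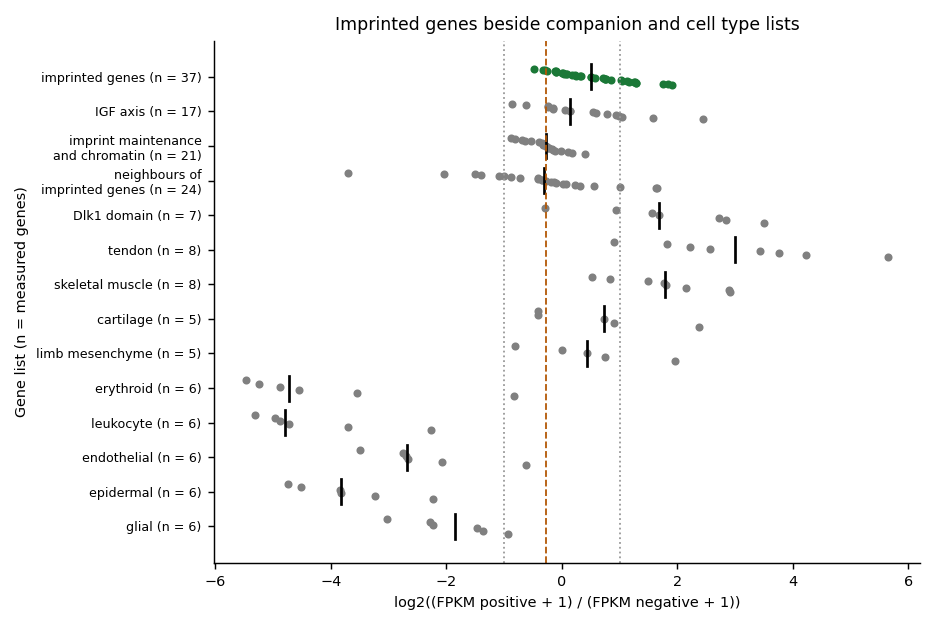
Ratio of every measured gene of the imprinted list (green) and of the other lists (grey), as log2((FPKM positive + 1) / (FPKM negative + 1)); each point is 1 gene, the black bar is the list's median, dotted lines are 2-fold and the dashed line is the median of all measured genes. The imprinted list lies between −0.48 and 1.92 with its median at 0.50, above the imprint maintenance (−0.28) and neighbour (−0.30) lists and below the tendon list (3.00). The medians of the limb mesenchyme (0.43) and cartilage (0.74) lists lie nearer to it.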

How the data were processed

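Total RNA of sorted cells was amplified into cDNA (NuGEN Ovation RNA-Seq v2), per the labels' protocols; this chemistry does not mark strand. Per the submitters' processing notes, Bowtie 0.12.7, TopHat 1.4.1 and build mm9 were used, with the version of the FPKM program not given in the sources used here. RefSeq transcripts are listed, per the file headers, with the authors' FPKM, their coverage (estimated depth of aligned bases, the deposited signal) and a status. All 73 rows of the imprinted genes had status OK. Aligned bases are coverage times length and came to 0.686 gigabases for positive and 0.875 for negative cells over all transcripts. Positions count from 1 after adding 1 to each deposited start.

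FPKM was summed per symbol with Python 3.11.15 and pandas 2.3.3, a symbol with a FAIL row was left out, and ratios used a pseudocount of 1, which understates differences of genes at low FPKM. Genes at 1 FPKM or more in either library counted as measured. All measured imprinted genes are named, and of each other list the 4 largest absolute ratios plus 11 genes whatever their value, not all of which are printed. The genes and lists were chosen with earlier results of these data known; parental copies come from background knowledge. Alternatives were other pseudocounts, minimums, scalings, 1 transcript per gene and status OK only. The reference windows are of another build and were matched by symbol.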

Additional observations from a re-analysis of the deposited data

How the results depend on the processing

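No imprinted gene was at least 2-fold lower under any of the 10 alternatives, and no gene counted as higher changed sign. The count of genes at least 2-fold higher, 11 as reported, was 5 with a pseudocount of 5 (*Airn*, *Cdkn1c*, *Peg10*, *Peg3* and *Plagl1*; 1.84% of all genes) and 19 with FPKM rescaled to equal sums without transcripts under 200 bases (7.74% of all genes); elsewhere it lay between 10 and 16. These 5 genes were past 2-fold in every setting. The median ratio, 0.50 as reported, was 0.33 with a pseudocount of 5, 0.26 without a minimum level, 0.73 with a minimum FPKM of 5, 0.81 with the median ratio of all genes set to 1, 0.76 with equal upper quartiles, 0.91 with equal sums and 1.02 with equal sums without short transcripts. These last 4 scalings shift all genes, whose median was then 0.009, −0.031, 0.10 and 0.20; relative to it the imprinted median was 0.80, 0.80, 0.81 and 0.82, against 0.77 as reported. Under the same settings in the same order, the median of genes with the paternal copy active was 0.46 with a pseudocount of 5, 0.94 with the minimum of 5, then 1.06, 1.02, 1.16 and 1.25, and 0.88 with a pseudocount of 0.1; that of genes imprinted in some tissues only, 0.035 as reported, was 0.35, 0.31, 0.46 and 0.57 under the 4 scalings; that of genes with the maternal copy active was 0.25 without a minimum level, 0.84 with the minimum of 5, then 0.71, 0.66, 0.82 and 0.94. Of genes below 2-fold, 7 changed sign under at least one scaling (*Copg2*, *Gnas*, *Inpp5f*, *Mcts2*, *Tssc4*, *Ube3a* and *Zrsr1*). The cause of these moves beyond the scalings' own construction was not tested. No paired analysis was possible because each group has 1 library, and for the same reason no library could be left out. All values lack a replicate check.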
